A study of Mus musculus with 9 samples.

Results

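A set of 9 genes of the T cell receptor complex and its coreceptors were followed in the abdominal aorta of B cell-deficient mice. They are the CD3 chain genes Cd3d, Cd3e and Cd3g, the zeta chain gene Cd247, the kinase genes Lck and Zap70, the adaptor gene Lat, and the coreceptor genes Cd4 and Cd8a. All non-control probes that the array files assign to these names were taken, which gave 13 probes of 55681 on the array and 9 genes of 16379 tested. All mice were uMT mice of the C57BL/6 strain, which lack mature B cells because the immunoglobulin mu heavy chain gene is altered, so no group shows how these genes behave where B cells are present. In the sham group, saline was put around the aorta. In the CaCl2 group, 0.5 M CaCl2 was used in place of saline to induce an aneurysm, and the third group had CaCl2 and was also given mouse polyclonal IgG into the peritoneum. Aortas of both CaCl2 groups were taken at day 7. The sources used here do not give the day of the sham group, the ages or the sexes. Each group had 3 samples, each on 1 array. The labels do not say whether the 3 samples of a group came from separate animals, so each p-value reflects only how much these samples varied, and that variation may be technical.

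The T cell receptor recognises peptide held by MHC molecules but has no signalling tail of its own. It relies on the CD3 delta, epsilon and gamma chains and the zeta chain, whose tails are phosphorylated by LCK, a kinase that CD4 or CD8 brings to the receptor. The kinase ZAP70 then docks on these tails and phosphorylates the adaptor LAT, from which the calcium and Ras branches of the signal start. In aortic aneurysm tissue, T cells are known as part of the infiltrate of the outer wall. CD4 is also carried by some dendritic cells and macrophages, CD8 alpha by a subset of dendritic cells, and cytoplasmic CD3 epsilon, CD3 zeta, LCK, ZAP70 and LAT by natural killer (NK) cells or other lymphoid cells.

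A level is the log2 of the processed signal minus the log2 of the 75th percentile of the same array, so 0 is the signal of that percentile and a step of 1 is a doubling. Levels of different probes cannot be set against each other, since probes differ in how well they bind. On each array, 54.9% to 59.9% of the probes were well above background, and 0 spots were saturated. The 75th percentile was a signal of 267 to 302 in the sham group, 381 to 496 in the CaCl2 group and 270 to 455 in the group with IgG. Replicate 3 of the group with IgG stood apart from the other 8 arrays, at -74.1 on the second principal component against 0.62 to 15.9. The 3 CaCl2 arrays shared row 1 of a slide with IgG replicate 1, sham replicates 1 and 2 shared row 2 with IgG replicates 2 and 3, and sham replicate 3 was on another slide. CaCl2 and sham therefore share no slide row, and for that comparison row and treatment can be told apart only through the arrays with IgG. The number of arrays limits the precision of every value.

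Of the genes, 4 had a pair of probes, and what was read for Cd247, Cd4 and Cd8a differed between them, so their probe sequences are shown. Positions on the transcript are those listed in the files, and genome positions are in build mm9, as the file headers name it. The 2 probes of Cd247 are listed on different transcripts, as are those of Cd8a, while those of Cd4 are listed on the same transcript. The annotation of that build was not used here, so exons and UTRs are not stated. The Cd247 probe from base 346 reads chr1:167786567-167787585 on the plus strand, its 60 bases being spread over 1019 bases of the chromosome. The Cd4 probe from base 1242 reads chr6:124817706-124817765 on the minus strand, and the Cd8a probe from base 464 reads chr6:71323885-71323944 on the plus strand. 5′ to 3′, these probes that start nearer to the 5′ end read as follows.
Cd247, base 346: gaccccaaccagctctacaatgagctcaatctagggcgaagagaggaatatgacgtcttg
Cd4, base 1242: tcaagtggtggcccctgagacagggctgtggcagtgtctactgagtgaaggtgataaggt
Cd8a, base 464: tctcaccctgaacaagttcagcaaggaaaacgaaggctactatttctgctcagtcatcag
The second probe of Cd247, from base 1996, reads chr1:167800324-167800383. That of Cd4, from base 3035, reads chr6:124814711-124814770, and that of Cd8a, from base 2875, reads chr6:71328911-71328970. Of these 3 probes, the Cd4 probe holds the letters AATAAA, the polyadenylation hexamer. Among the 13 probes, the last 30 bases of 3 hold it, and they are shown because they lie near where a transcript can end (capitals mark the hexamer).
Cd4, base 3035: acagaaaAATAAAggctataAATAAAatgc
Cd3e, base 1374: taatgcaaaaggcAATAAAgtgtattggct
Lck, base 2085: tgcctagcacacaccaggagctcAATAAAa
The hexamer is in the last 30 bases of 14.2% of the 16379 probes that stand for the tested genes.

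The 3 CD3 genes lie in 1 cluster on chromosome 9, and the sequences before their starts are shown because Cd3d and Cd3g passed the test against sham and Cd3e did not. Cd3g and Cd3d are read in opposite directions, with 1355 bases between their starts, and the start of Cd3e lies 27825 bases beyond that of Cd3d. The 250 bases before each start, from RefSeq on build GRCm38.p6, are at chr9:44980432-44980681 (minus strand) for Cd3g, chr9:44981536-44981785 (plus strand) for Cd3d and chr9:45009612-45009861 (minus strand) for Cd3e. The capitals in the Cd3g sequence mark a GATA motif. Those in the Cd3e sequence mark an ETS motif, read on the other strand.
Cd3g: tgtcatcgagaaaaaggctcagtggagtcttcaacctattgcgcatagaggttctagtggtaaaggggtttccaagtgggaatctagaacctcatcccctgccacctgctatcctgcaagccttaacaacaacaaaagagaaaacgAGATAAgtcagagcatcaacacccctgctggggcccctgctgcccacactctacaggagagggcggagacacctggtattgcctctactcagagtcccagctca
Cd3d: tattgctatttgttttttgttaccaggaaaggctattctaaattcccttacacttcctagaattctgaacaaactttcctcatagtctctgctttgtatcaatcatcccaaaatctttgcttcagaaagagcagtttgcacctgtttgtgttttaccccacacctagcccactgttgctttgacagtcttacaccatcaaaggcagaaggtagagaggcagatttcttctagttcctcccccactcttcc
Cd3e: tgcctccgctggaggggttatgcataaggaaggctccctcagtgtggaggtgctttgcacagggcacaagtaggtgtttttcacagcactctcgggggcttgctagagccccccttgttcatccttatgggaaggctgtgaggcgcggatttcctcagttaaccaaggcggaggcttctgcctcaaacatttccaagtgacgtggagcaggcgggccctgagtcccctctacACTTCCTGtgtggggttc
Promoters of 8 of the 9 genes were matched by symbol, all but Cd4. On either strand of the table's windows, from 250 bases before to 50 after a start, the ETS motif CAGGAAGT was found in 4 of the 11 promoters of these genes (of Cd3e, Cd247 and Lck) and in 3.33% of all 32851 promoters. The RUNX motif TGTGGT was found in 3 of the 11 (of Lck, Zap70 and Lat; 16.8% of all promoters), the GATA motif AGATAA in 1, of Cd3g (11.2%), and the TATA motif TATAAA in 0 (13.6%). No motif contains another, and a match describes the sequence only.

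The main comparison asked how CaCl2-treated aortas differed from sham aortas. Genes of the receptor's signalling chain were higher with CaCl2: Cd3d by 4.53 ± 0.51 on the log2 scale (SE, n = 3 per group), Cd3g by 4.17 ± 0.61, Zap70 by 3.27 ± 0.33, Lck by 3.02 ± 0.36 and Lat by 2.48 ± 0.22. Cd8a rose from below background. Cd4 moved the other way, with a change of -0.71 ± 0.24, and Cd3e and Cd247 did not pass the test. With IgG added, Cd3d, Cd3g, Lck, Zap70, Lat and Cd8a were again higher than in sham, and none of the 9 differed from CaCl2 alone past the threshold. In whole aorta, more T cells and more RNA per cell cannot be told apart.

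Limma called 7 of the 9 genes in CaCl2 against sham at a Benjamini-Hochberg adjusted p under 0.05, of which 6 were higher and 1 lower. Over all 16379 tested genes, 36.8% were called, 17.6% higher and 19.2% lower. At an unadjusted p under 0.05 it was 8 of the 9, against 48.4% of all tested genes. All 9 genes passed the filter on dim probes, but Cd3d, Cd3g and Cd8a did so only through the groups with CaCl2, where they were brighter. The median change of the 9 genes was 2.48 and that of all tested genes -0.078. A change as large as that of Cd3d or larger was seen in 52 genes, or 0.317% of those tested. Cd3d was taken for this as the largest change of the 9, so the share describes that gene and not the set. Its sham mean also includes an array on which it was not well above background. Levels of the CaCl2 and sham arrays did not overlap for 6 of the 9 genes in the higher direction and for 1 in the lower, against 24.8% and 31.9% of all tested genes (56.7% in either direction).

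**Figure D1:**
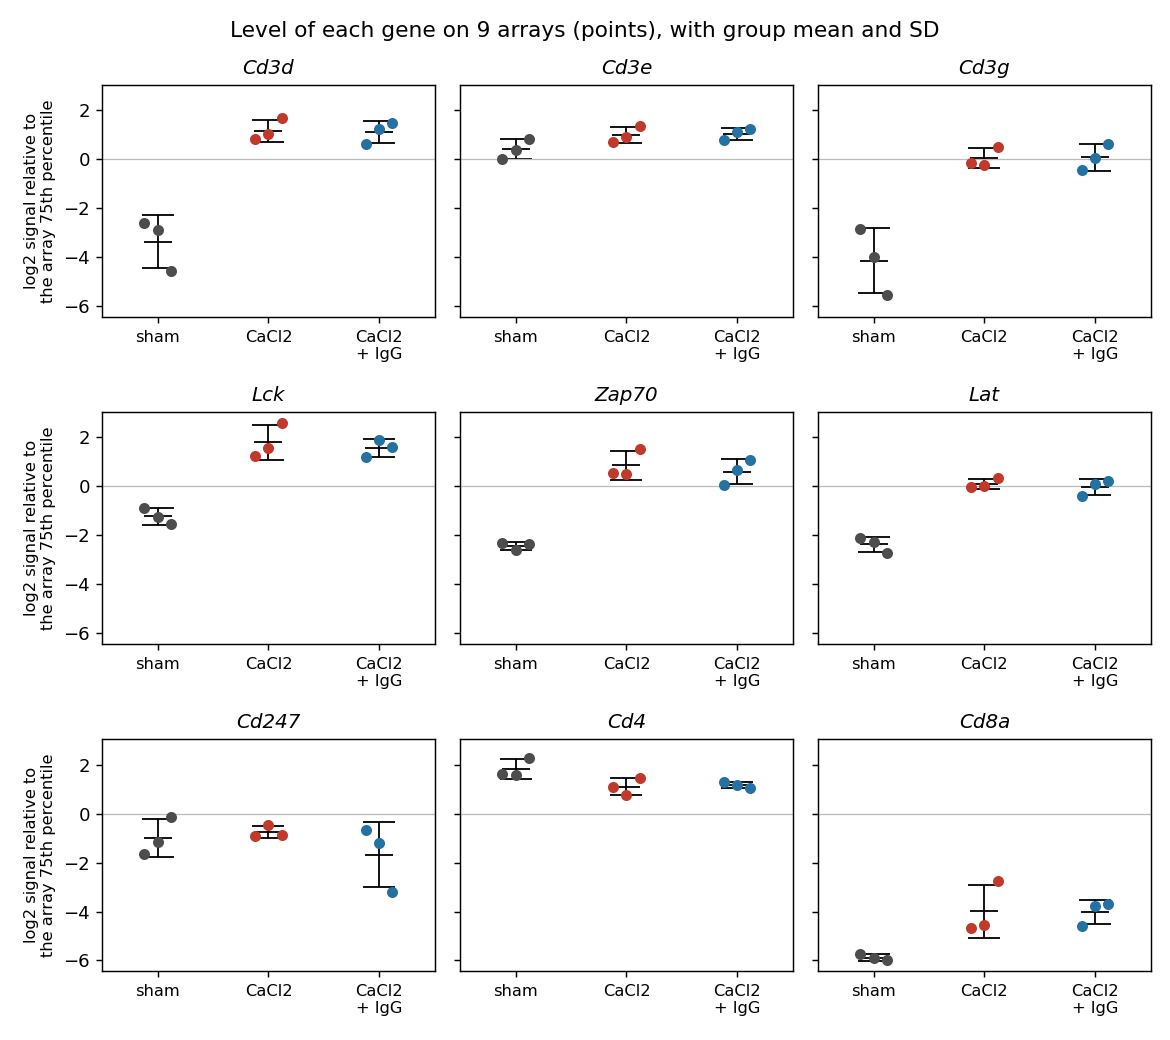
Level of each of the 9 genes on its brightest probe, as log2 signal relative to the 75th percentile of the array, with each point 1 array and bars the group mean and SD (n = 3). Sham arrays lie below all 6 CaCl2-treated arrays for Cd3d, Cd3g, Lck, Zap70, Lat and Cd8a, above them for Cd4, and overlap with them for Cd3e and Cd247.

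Cd3d encodes the delta chain, which pairs with epsilon. Its level was -2.60, -2.90 and -4.58 on the sham arrays, 0.82, 1.02 and 1.68 in the CaCl2 group, and 0.62, 1.26 and 1.47 where IgG was added. The sham arrays were all far below the others, the one on the other slide lowest, and only 2 of the 3 were well above background. The 23.1-fold difference between CaCl2 and sham had an adjusted p of 0.000785. With IgG, the difference from sham was 4.47 ± 0.51 (adjusted p = 0.000844). Without sham replicate 3, the change in CaCl2 against sham was 3.92.

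Cd3g encodes the gamma chain, the other partner of epsilon. It read -2.87, -4.01 and -5.53 in sham, -0.17, -0.23 and 0.51 with CaCl2, and -0.44, 0.04 and 0.64 with IgG. The groups with CaCl2 lay together and well over sham, where again 2 of 3 arrays were above background and the spread was widest. The change was 18.0-fold against sham with CaCl2 (adjusted p = 0.00186) and 18.6-fold with CaCl2 plus IgG (adjusted p = 0.00194). These folds include sham replicate 3, where Cd3g lay under that array's lowest signal well above background, at -4.20. Without sham replicate 3, the log2 changes were 3.48 with CaCl2 and 3.52 with CaCl2 plus IgG.

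Cd3e encodes the epsilon chain, of which each receptor holds a copy in both of its CD3 pairs. Levels were 0.03, 0.37 and 0.83 in sham, 0.70, 0.90 and 1.34 with CaCl2, and 0.77, 1.11 and 1.24 with IgG. The highest sham array exceeded the lowest array of each CaCl2-treated group, so the groups overlapped. Cd3e differed from sham by 0.57 ± 0.25 with CaCl2 (adjusted p = 0.102) and by 0.63 ± 0.25 with IgG (adjusted p = 0.0903), and neither passed. Scaled to the median of each array, the CaCl2 difference was 1.11 and passed (adjusted p = 0.0143). Whether Cd3e changed less than Cd3d and Cd3g was not tested.

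Cd247 encodes the zeta chain, which carries most of the receptor's phosphorylation motifs, and its 2 probes gave different pictures. The brighter probe, from base 1996, read -1.66, -1.18 and -0.16 in sham, -0.93, -0.47 and -0.86 with CaCl2, and -0.67, -1.19 and -3.19 with IgG. The 3 groups overlapped, and the lowest level was that of IgG replicate 3, the array that stood apart. CaCl2 differed from sham by 0.25 ± 0.63 (adjusted p = 0.780) and IgG from sham by -0.69 ± 0.63 (adjusted p = 0.431), or by 0.066 without IgG replicate 3.

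The dimmer Cd247 probe, from base 346, read -6.10, -6.48 and -5.80 in sham, -4.62, -4.42 and -3.68 with CaCl2, and -4.35, -4.21 and -5.12 with IgG. Sham was lowest throughout, and 0 of 3 sham arrays, 3 of 3 CaCl2 arrays and 2 of 3 arrays with IgG were well above background. Fitted as a probe of its own, it rose with CaCl2 (adjusted p = 0.00544) and with CaCl2 plus IgG against sham (adjusted p = 0.0132). In that fit 32.6% and 21.7% of 32167 probes were called. Because the lowest signal that counted as above background in sham, at -4.22, exceeded the mean of the treated groups, at -4.24 and -4.56, no fold is given. The call of Cd247 therefore depends on the probe, and the 2 probes are listed on different transcripts.

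**Figure D2:**
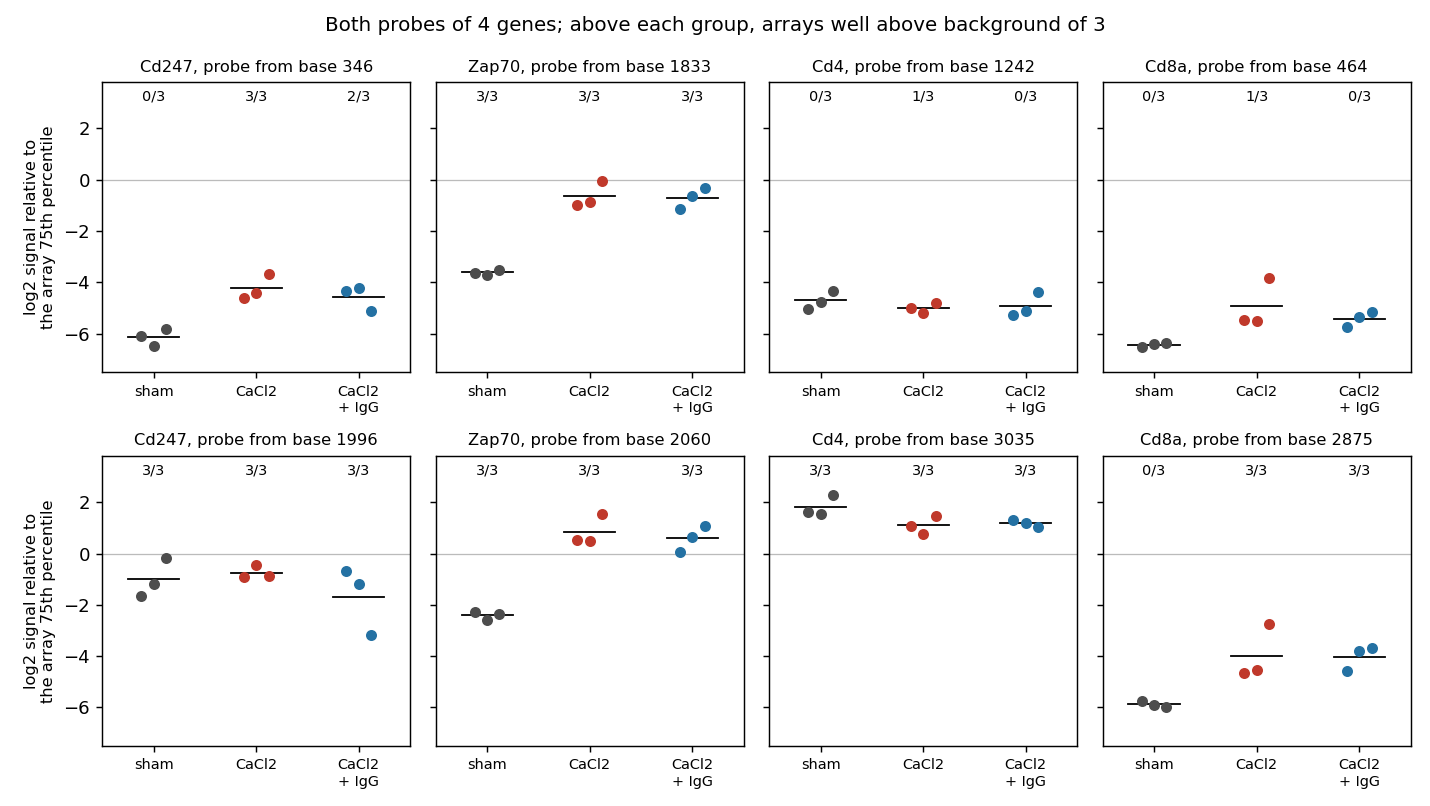
Levels on both probes of Cd247, Zap70, Cd4 and Cd8a, as log2 signal relative to the 75th percentile of the array, with each point 1 array, bars the group mean, and the number of arrays well above background over each group. Both Zap70 probes are above background on all arrays and higher in the treated groups. The upper-row probes of Cd247, Cd4 and Cd8a and also the lower-row probe of Cd8a are above background on 0 of 3 sham arrays.

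Lck encodes the kinase that starts receptor signalling. Its level was -0.86, -1.25 and -1.55 in sham, 1.23, 1.58 and 2.60 with CaCl2, and 1.18, 1.91 and 1.61 with IgG. All 9 arrays were well above background, and no treated array came near the sham arrays. Lck was 8.13-fold higher with CaCl2 (adjusted p = 0.000919) and 6.90-fold higher with IgG (adjusted p = 0.00130) than in sham.

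Zap70 encodes the kinase that binds the phosphorylated chains. On its brighter probe, from base 2060, it read -2.29, -2.60 and -2.35 in sham, 0.55, 0.50 and 1.52 with CaCl2, and 0.06, 0.65 and 1.07 with IgG. The sham arrays agreed closely, and the treated arrays were all higher. The probe from base 1833 read -3.63, -3.71 and -3.50, then -0.99, -0.86 and -0.06, then -1.15, -0.65 and -0.34 in the same order of groups. Both probes thus separated sham from the treated groups, by 3.27 ± 0.33 with CaCl2 on the first (adjusted p = 0.000591) and by 2.98 ± 0.29 on the second (adjusted p = 0.000802 in the fit of single probes). With IgG, the first differed from sham by 3.01 ± 0.33 (adjusted p = 0.000784).

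Lat encodes the adaptor on which the signal branches. It read -2.10, -2.29 and -2.71 in sham, -0.011, -0.00075 and 0.34 with CaCl2, and -0.39, 0.10 and 0.22 with IgG. All 3 sham arrays were below all 6 treated arrays. Lat was 5.56-fold higher with CaCl2 (adjusted p = 0.000414) and 5.08-fold higher with IgG (adjusted p = 0.000552).

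Cd4 encodes the coreceptor for MHC class II and was the 1 gene of the 9 that fell. On its brighter probe, from base 3035, it read 1.60, 1.56 and 2.27 in sham, 1.08, 0.77 and 1.45 with CaCl2, and 1.30, 1.18 and 1.03 with IgG. Each sham array was above each treated array, although the gap to the highest CaCl2 array was small. The change with CaCl2 was -0.71 ± 0.24 (adjusted p = 0.0466), and that with IgG was -0.64 ± 0.24 and did not pass (adjusted p = 0.0757). This call sat at the threshold: it was kept in 9 of 23 other settings, was lost when any 1 of 7 of the 9 arrays was left out, and the change was -0.18 when arrays were scaled to their median (adjusted p = 0.695).

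The dimmer Cd4 probe, from base 1242, read -5.02, -4.75 and -4.33 in sham, -4.98, -5.18 and -4.79 with CaCl2, and -5.29, -5.14 and -4.38 with IgG. It was well above background on 1 of the 9 arrays, a CaCl2 array, and the groups overlapped. It was removed by the filter, and in a fit with no filter its change with CaCl2 was -0.28 ± 0.29 (adjusted p = 0.454). The probe gives no second measurement of Cd4.

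Cd8a encodes the alpha chain of the coreceptor for MHC class I. On its brighter probe, from base 2875, it read -5.73, -5.91 and -6.00 in sham, -4.67, -4.56 and -2.76 with CaCl2, and -4.60, -3.79 and -3.69 with IgG. None of the sham arrays and all 6 treated arrays were well above background, with CaCl2 replicate 3 the highest. Cd8a was at least 1.17-fold higher with CaCl2 (adjusted p = 0.0186; means -3.997 and -5.88) and at least 1.14-fold higher with IgG (adjusted p = 0.0230; mean -4.03) than in sham. These bounds use the mean of the brighter group and, in sham, the lowest signal well above background. That sham limit was a mean level of -4.22, and CaCl2 replicates 1 and 2 and IgG replicate 1 lay below it. The CaCl2 bound thus rests on CaCl2 replicate 3. The adjusted p-values belong to the fitted changes of 1.88 and 1.85, not to the bounds. The call held in 17 of 22 other settings with CaCl2 and in 15 of 22 with IgG, and with the normexp background correction the changes were -0.13 and -0.025. That correction adds an offset of 50 to every signal, and the sham limit of background was a signal of 14.0 to 16.6. No other offset was tried, and whether the offset accounts for these changes was not tested.

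The second Cd8a probe, from base 464, read -6.53, -6.40 and -6.36 in sham, -5.46, -5.52 and -3.84 with CaCl2, and -5.76, -5.35 and -5.17 with IgG. It was above background on CaCl2 replicate 3 only, and the sham arrays were the lowest. Its CaCl2 difference had an adjusted p of 0.0302 in the fit with no filter, and its level gives no fold.

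**Figure D3:**
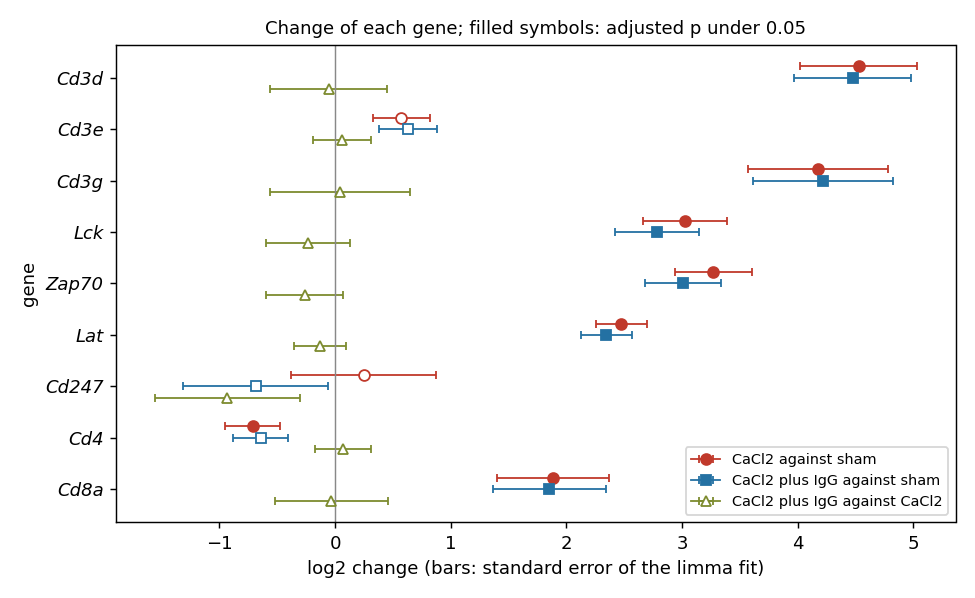
Log2 change of each gene on its brightest probe in the 3 comparisons, with the standard error of the limma fit and filled symbols for an adjusted p under 0.05. Cd3d, Cd3g, Lck, Zap70, Lat and Cd8a are filled on the higher side against sham in both treated groups, Cd4 is filled on the lower side for CaCl2 only, and no symbol is filled for CaCl2 plus IgG against CaCl2. The fitted Cd8a change is from a sham level below background and is only a bound.

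The coreceptors were also set against each other within the same arrays, as a change in their ratio between groups. The log2 ratio of Cd8a to Cd4 was higher by 2.60 with CaCl2 than in sham and by 2.50 with IgG than in sham, and differed by -0.10 between the treated groups. Cd8a in sham was below background, so these differences rest on a sham value that is no measured level. The log2 ratio of Cd4 to Cd3e differed from sham by -1.29 with CaCl2 and by -1.27 with IgG, and by 0.01 between the treated groups. In exact permutation tests, two-sided, both ratios gave p = 0.1 against sham, which is the smallest p that 3 against 3 arrays allow, and the treated groups gave p = 0.9 and p = 1 against each other. A permutation test of this size cannot reach the threshold, so these 6 comparisons were not adjusted.

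Adding IgG was compared with CaCl2 alone to see what injected immunoglobulin did in mice without mature B cells. In that comparison 0 of the 9 genes and 0 of 16379 tested genes were called by limma, and 242 genes (1.48%) had an unadjusted p under 0.05, none of them among the 9. The arrays of these groups overlapped for all 9 genes, while they did not for 5.04% of all tested genes (2.62% higher, 2.42% lower). The comparison was less precise for some genes than for others. The 95% interval of the log2 difference was -0.64 to 0.38 for Lat, -0.51 to 0.63 for Cd3e, -0.48 to 0.62 for Cd4 and -1.02 to 0.49 for Zap70. For Lck it was -1.07 to 0.59, for Cd8a -1.15 to 1.08, for Cd3d -1.21 to 1.102, for Cd3g -1.34 to 1.43 and for Cd247 -2.37 to 0.51. Differences of 2-fold in either direction thus lie within the intervals of Cd3d, Cd3g and Cd8a, and outside those of Lat, Cd3e and Cd4.

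In CaCl2 plus IgG against sham, limma called 6 of the 9 genes, all higher, against 29.2% of all tested genes called and 14.9% called higher. At an unadjusted p under 0.05 it was 8 of the 9, against 42.1%. Arrays did not overlap with sham for 6 genes in the higher direction and for Cd4 in the lower, against 20.5% and 24% of all tested genes (44.5% in either). This comparison and CaCl2 against sham share the sham arrays, so their likeness is partly built in. Without IgG replicate 3, 6 of the 9 were again called, with 6651 of all 16379 genes called. Within row 2 of the first slide, which holds 2 sham arrays and 2 arrays with IgG, the differences were 4.11 for Cd3d, 3.78 for Cd3g, 3.31 for Zap70, 2.81 for Lck, 2.36 for Lat, 0.98 for Cd3e, -0.48 for Cd4 and -0.77 for Cd247. Cd8a was below background on both of those sham arrays, so no difference is given for it there. Within row 1, the single array with IgG was below the mean of the 3 CaCl2 arrays for Cd3d (-0.55), Cd3g (-0.48), Lck (-0.62), Zap70 (-0.80), Lat (-0.50), Cd8a (-0.60) and Cd3e (-0.21), and above it for Cd4 (0.20) and Cd247 (0.080). With slide and row as a block, 3 of the 9 genes stayed called in CaCl2 against sham (Cd3d, Zap70 and Lat), where only 194 of all genes were called, and the changes of Cd3g and Lck were 4.26 (adjusted p = 0.0512) and 3.43 (adjusted p = 0.0695).

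The order of the arrays within groups was compared across the genes. CaCl2 replicate 3 had the highest level of its group for 8 of the 9 genes, all but Cd247, and IgG replicate 1 had the lowest of its group for 7. On the sham arrays, replicate 3, on the other slide, was lowest for 5 of the genes (Cd3d, Cd3g, Lck, Lat and Cd8a) and highest for 3 (Cd3e, Cd247 and Cd4). Without CaCl2 replicate 3, 7 of the 9 genes were called in CaCl2 against sham, as with it, and 4061 of all 16379 genes. Over the 9 arrays, the level of Cd4 had a correlation of -0.84 with the mean of Cd3d and Cd3g, and over the 6 treated arrays one of 0.25. Zap70 had 0.96 and 0.95, Lat 0.99 and 0.93, and Cd3e 0.63 and 0.95. Cd247 went the other way, at -0.31 and -0.61. These correlations describe the arrays, which share slides and, over all 9, the difference between groups.

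Among the genes whose levels were most like the mean of Cd3d, Cd3e and Cd3g over the 9 arrays, of 14619 ranked by Pearson correlation, were Clec4n (0.996), Gmfg (0.996), Il2ra (0.995) and Stat4 (0.994). Clec4n encodes the C-type lectin dectin-2 of myeloid cells, Il2ra the alpha chain of the interleukin-2 receptor and Stat4 a signal transducer of interleukin-12. For Cd4 they were Arl4c (0.987), Lypd2 (0.985), Tmem215 (0.980), Khsrp (0.974) and Pkd1l2 (0.973).

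The antigen-binding chains were read through their constant regions. Trbc1 and Trbc2, near-identical copies whose probes may share signal, rose by 3.61 ± 0.32 (adjusted p = 0.000392) and 3.11 ± 0.26 (adjusted p = 0.000324) with CaCl2. Trbc1 read -0.94, -1.36 and -1.83 in sham, 1.91, 1.91 and 2.86 with CaCl2, and 1.98, 2.23 and 2.47 with IgG, so the groups with CaCl2 lay apart from sham as for Lck. Trac, of the alpha chain, was at least 1.78-fold higher with CaCl2 (adjusted p = 0.00215), and the probe named for the gamma constant region at least 1.78-fold (adjusted p = 0.00558), each above background on 0 of 3 sham arrays. Over all tested genes, 17.6% were called higher and 19.2% lower in CaCl2 against sham. Of 7 measured genes in a list of receptor and CD3 chains beyond the 9, 5 rose, 1 fell and 1 did not pass (median 2.00, or 0.83 with bounds). The gene that fell was a thymus cDNA clone that the files call Tcra, at least 4.15-fold lower (adjusted p = 0.0247) and above background on 0 of 3 CaCl2 arrays. Cd8b1, the beta chain of the CD8 coreceptor, was at least 1.69-fold higher (adjusted p = 0.0286).

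Genes that carry or restrain the receptor's signal were counted next, beside 17.6% of all tested genes called higher with CaCl2 and 19.2% lower. Txk, Lcp2, Prkcq and Sh2d1a of the signalling list were above background on no sham array. They passed the filter on dim probes only through the groups with CaCl2, where they were brighter. Of 19 measured genes of proximal signalling, limma called 15 higher with CaCl2 and left 4 uncalled, with a median of 2.30, or 1.87 with genes below background in sham at their bound. Skap1, an adaptor that links the receptor to integrins, rose by 3.997, and Prkcq, protein kinase C theta, was at least 5.66-fold higher. Fyn, a kinase related to LCK that other cells also express, differed by 0.65, Plcg1, phospholipase C gamma, by 0.051, and neither passed. Of 10 genes in a list headed restraint of receptor signalling, 7 rose and 3 did not pass (median 1.93). Btla, an inhibitory receptor, rose by 3.67, and the phosphatase genes Ptpn22, Ptprc and Ptpn6 by 3.49, 2.88 and 2.60. Ptprc is also counted among the pan-leukocyte markers below, so its change does not speak for restraint alone. Csk, which restrains LCK, differed by -0.048 and did not pass.

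Costimulatory, lineage and homing genes were described in the same way, beside the same shares of all tested genes (17.6% called higher, 19.2% lower). Of 10 costimulation and adhesion receptor genes, 7 rose and 3 did not pass (median 1.92, or 1.44 with bounds): Icos rose by 4.01, the inhibitory receptor gene Pdcd1 by 3.65 and Cd2 by 3.38, Ctla4 was at least 2.08-fold higher, and Cd28 differed by 0.72 and did not pass. Of 12 transcription factor genes of the T lineage, 8 rose and 4 did not pass (median 1.42). Tcf7 rose by 2.45, Ikzf1 by 2.64 and Foxp3, the factor of regulatory T cells, by 1.76, and Bcl11b and Tbx21 were at least 3.17-fold and 4.16-fold higher. Zbtb7b and Runx3, which direct the CD4 and CD8 fates, differed by -0.33 and -0.65, neither past the test. Of 5 homing receptor genes of naive T cells, 3 rose and 2 did not pass (median 2.95): Ccr7 rose by 3.43 and Il7r by 2.95.

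**Figure D4:**
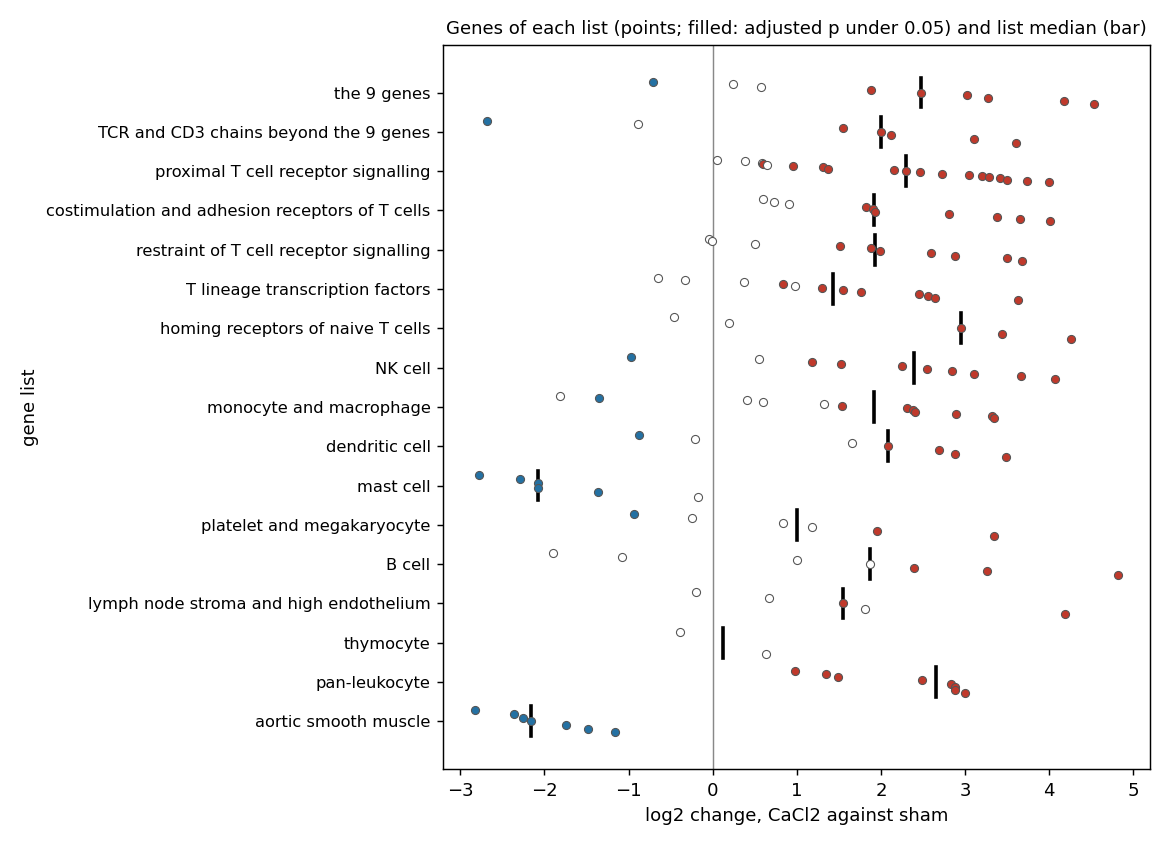
Log2 change in CaCl2 against sham for each tested gene of each list, filled where the adjusted p is under 0.05 (red higher, blue lower), with a bar at the list median. The lists of T cell genes beyond the 9 have medians from 1.42 to 2.95 and the NK cell list one of 2.40, or 0.83 to 2.95 and 1.08 with genes below background in 1 group at their bound, and those of mast cell and smooth muscle genes -2.08 and -2.15; genes below background in sham are plotted at their fitted change.

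In CaCl2 plus IgG against sham, 5 of the 7 chain genes rose, 14 of 19 signalling genes, 7 of 10 restraint genes, 7 of 10 costimulation genes, 8 of 12 transcription factor genes and 3 of 5 homing receptor genes, and no gene of these lists fell. Over all tested genes, 14.9% were called higher and 14.3% lower in that comparison. None of the genes of these lists, and 0 of all 16379 tested genes, was called in CaCl2 plus IgG against CaCl2. Txk, a kinase gene of the signalling list, was at least 4.65-fold higher than in sham. Median changes were 2.16 for the signalling genes (1.81 with bounds), 1.61 for the restraint genes and 1.79 for the costimulation genes (1.29 with bounds).

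Markers of other cells that carry some of the 9 genes moved as well. Their counts stand beside 17.6% of all tested genes called higher with CaCl2 and 19.2% lower. Among 10 markers of NK cells, limma called 8 higher and 1 lower with CaCl2. Klrd1 rose by 4.06 ± 0.63 and Klrb1c was at least 3.89-fold higher, whereas Prf1, perforin, fell by 0.97, and 6 of the 10 markers were above background on no sham array. The summed NK signal, in log2 units, was 1.49 to 1.66 in sham, 1.98 to 3.34 with CaCl2 and 2.42 to 2.56 with IgG. Such a sum adds the signals of different probes and depends most on the brightest, so it does not measure the amount of a cell type. Of 12 monocyte and macrophage markers, 7 rose, 1 fell (Itgam, by 1.35) and 4 did not pass, and their summed signal was 7.86 to 7.91 in sham, 8.04 to 8.44 with CaCl2 and 8.29 to 8.64 with IgG. Of 7 dendritic cell markers, 4 rose, 1 fell (Siglech, by 0.88) and 2 did not pass, with sums of 7.62 to 8.02, 7.26 to 7.39 and 7.23 to 8.14. The dendritic cell sum was thus lower with CaCl2 than in sham, although the median change of its markers was 2.08. The part of NK cells, monocytes, macrophages and dendritic cells in the levels of Cd4, Cd8a, Cd247, Lck, Zap70 and Lat was not tested.

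Markers of B cells, lymph node and thymus were read as well. Among 7 markers of B cells, 3 were called higher with CaCl2 and 4 were not called, against 36.8% of all tested genes called. Cd79b rose by 2.39 ± 0.44, and Fcmr was at least 7.68-fold higher, above background on 0 of 3 sham and 3 of 3 CaCl2 arrays. Of those not called, Cd79a was at 1.00 and Ms4a1 at 1.87 (adjusted p = 0.0566), while Pax5 and Cd22 were on the lower side, at -1.90 (adjusted p = 0.0508) and -1.07 (adjusted p = 0.0957), with no overlap between CaCl2 and sham arrays. Summed B cell signal was 1.58 to 2.18 in sham, 1.85 to 3.23 with CaCl2 and 2.06 to 3.61 with IgG, highest in its group on CaCl2 replicate 3, the array on which most of the 9 genes were highest. Of 5 markers of lymph node stroma and high endothelium, 2 rose and 3 did not pass. Glycam1 was at least 4.20-fold higher and Ccl19, a chemokine of T cell zones, rose by 1.54, and the sums were 3.19 to 3.52 in sham, 4.18 to 5.56 with CaCl2 and 4.77 to 4.89 with IgG. Of 2 tested thymocyte markers 0 were called, and Rag1 and Rag2, which define developing lymphocytes, were above background on none of the 9 arrays. The part of lymph node tissue or of remaining B lineage cells in the results was not tested.

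All 8 pan-leukocyte markers rose, with a median of 2.66 and sums of 4.28 to 5.15 in sham, 6.71 to 7.48 with CaCl2 and 6.76 to 7.05 with IgG. The shares of all tested genes called with CaCl2 were 17.6% higher and 19.2% lower. All 7 smooth muscle markers fell, with a median of -2.15 and sums of 11.3 to 11.5, 9.65 to 10.3 and 9.78 to 10.2. In this tissue, labelled aorta, each of the 7 stood clear of background on every array. Of 6 mast cell markers, 5 fell and 1 did not pass, and of 6 platelet markers, 2 rose, 1 fell (Gp1bb, by 0.94) and 3 did not pass. Whether the 9 genes moved beyond these pan-leukocyte markers was not tested.

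**Figure D5:**
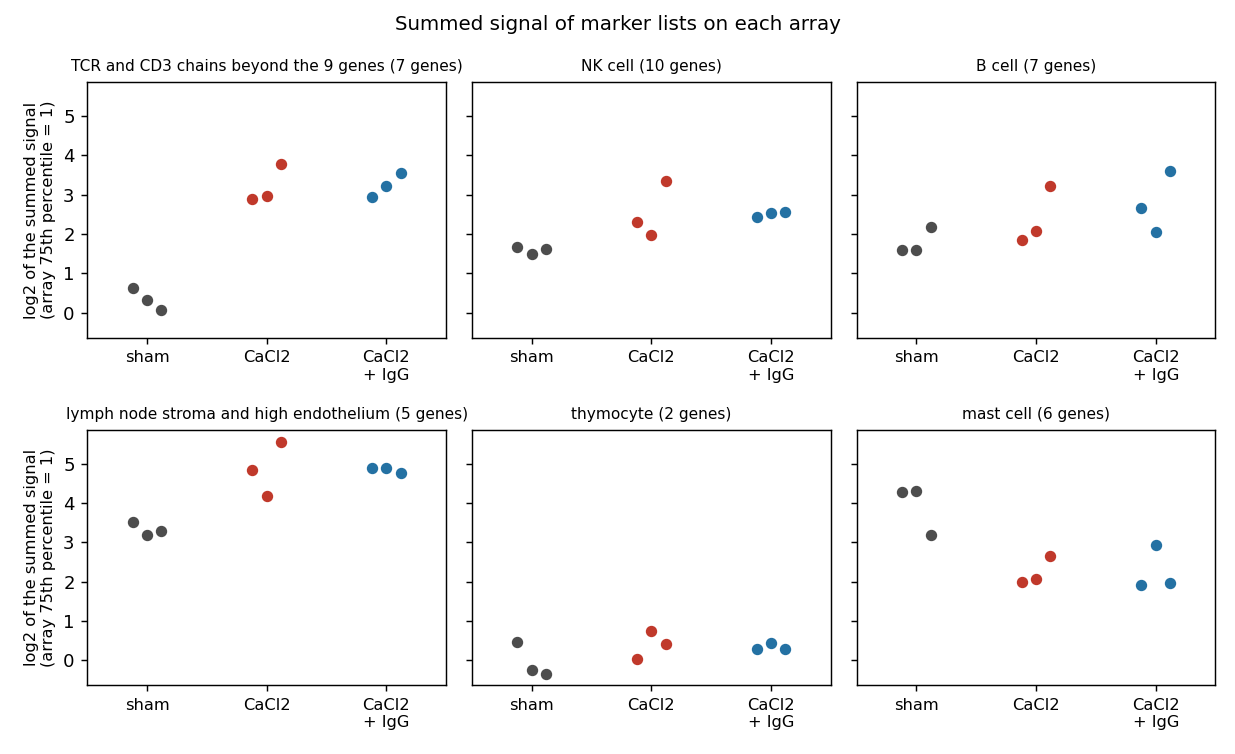
Summed signal of 6 marker lists on each array, as log2 with the 75th percentile of the array set to 1, each point 1 array. A sum depends most on the brightest probes of its list and does not measure the amount of a cell type. Receptor chains, NK cell and lymph node genes are higher in both treated groups than in sham, B cell genes overlap between groups and are highest on CaCl2 replicate 3 and IgG replicate 3, and mast cell genes are higher in sham.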

How the data were processed

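Per the labels, RNA of the 9 aorta samples was labelled with a single dye and each sample was put on its own Agilent array. The authors deposited scanner files of spot intensity on a linear scale, made with Feature Extraction 10.7.1.1 per the file headers (9.5.1.1 per the submitters' processing notes), with background subtraction and spatial detrending within arrays. Their deposited series table holds intensity values with a shared median of 29.7 in all columns, with steps not given in the sources used here, and served as an alternative.

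The log2 of each processed signal was taken, less the log2 of the array's 75th percentile. Control and outlier spots (101 to 147 an array) were left out and spots of 1 probe averaged. Of 55681 probes, 32465 had a symbol: 27229 were named through their accession in the RefSeq table of GRCm38.p6, 3586 through their symbol, 4 receptor constant regions from their description and 1646 only by the file. A probe was kept (32167 probes) where every array of some group had it well above background, and the brightest stood for its gene. Groups were taken from the titles. Limma 3.58.1 in R 4.3.3 fitted 9 arrays and 3 groups with 6 residual degrees of freedom, and p-values were adjusted over all 16379 genes. Scripts were tested on simulated data. Columns mapped to no sample numbered 0.

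The 9 genes, the gene lists and the tests were chosen with earlier results of these data known. The naming rule took, beside the 9 genes, the 5 genes most like the CD3 mean and the 5 most like Cd4, up to 4 called genes with the largest change of each list, and called genes that moved against their list's median. Genes named outside it, such as Foxp3, Fyn, Csk, Cd28, Zbtb7b and Runx3, were chosen after their values were seen. Some genes that the rule takes are not reported here. A gene below background on all arrays of a group has only a bound there, and list medians hold such genes at fitted values. Alternatives covered scaling, background correction, filters, probe choice, slide row, the replicate number as a block, array weights, and leaving out each array. Replicate numbers were checked for pairing: same-numbered arrays of different groups had correlations of -0.196 to 0.215 in their deviations, so the numbers were not taken to pair samples. Figures used matplotlib 3.10.9.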

Additional observations from a re-analysis of the deposited data

How the results depend on the processing

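Cd3d, Zap70 and Lat were called in both comparisons with sham under every alternative that tested them, and Lck and Cd3g under all but slide and row as a block in CaCl2 against sham. Of the 9 genes, 5 to 7 were called in CaCl2 against sham and 5 to 6 in CaCl2 plus IgG against sham when 1 array was left out. Of all 16379 genes, 3933 to 7387 and 3030 to 6651 were then called. With slide and row as a block, the count for CaCl2 against sham was 3, with 194 of all 16379 genes called. Requiring probes well above background on all 9 arrays left 6 of the genes and removed Cd3d, Cd3g and Cd8a. The counts were then 4 and 3, with 5232 and 4230 of all 14508 genes called. With the replicate block, which the data do not bear out as a pairing, they were 8 and 7, as Cd3e joined (adjusted p = 0.0197 and 0.0170), and the genes called numbered 5762, 0 and 4662, against 6020, 0 and 4790 without it. Alternatives on the second probes, on single probes and without both IgG replicate 3 and sham replicate 3 were chosen after seeing the data. Without both arrays, 6 and 5 of the 9 genes were called, with 6120 and 5402 of all 16379 genes called.

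Over all genes, CaCl2 against sham called 3933 without sham replicate 3, 3990 without CaCl2 replicate 1 and 194 with the slide and row block. CaCl2 plus IgG against sham called 2936 with median scaling, 2231 with the slide and row block, 8369 with array weights and 3030 without IgG replicate 2, and the third comparison called 2 without IgG replicate 1. Median scaling moved the median change of all genes from -0.078 to 0.46, from -0.093 to 0.19 and from -0.016 to -0.27 in CaCl2 against sham, CaCl2 plus IgG against sham and CaCl2 plus IgG against CaCl2. The split of higher and lower calls in CaCl2 against sham went from 2881 and 3139 to 3865 and 937, to 3338 and 2541 with quantile normalization, 3335 and 2539 with the authors' deposited series table, 2799 and 5731 with no filter and 2567 and 3670 with normexp. In CaCl2 plus IgG against sham it went from 2440 and 2350 to 2180 and 756 with median scaling.

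Signs turned mostly where a change was near 0. With normexp, Cd8a was -0.13 and -0.025 against sham and 0.11 in CaCl2 plus IgG against CaCl2, and the differences of the Cd8a to Cd4 ratio from sham were 0.48 and 0.54. Cd247 against sham was -0.85 with CaCl2 under the slide and row block and -0.084 to 0.67 with 1 array left out. With IgG it was 0.44 for the mean of its probes and 1.57 for the other probe, both fitted values that rest on a sham signal below background and give no fold, 0.0011 with array weights, 0.49 without both arrays and -1.19 to 0.066 with 1 left out. In CaCl2 plus IgG against CaCl2, with 1 array left out, Cd3d was -0.23 to 0.20, Cd3e -0.083 to 0.24, Cd3g -0.24 to 0.30, Lck -0.53 to 0.16, Zap70 -0.50 to 0.071, Lat -0.25 to 0.055, Cd4 -0.10 to 0.24 and Cd8a -0.37 to 0.59. There, median scaling gave Cd3e -0.20, Cd3g -0.21 and Cd4 -0.19. The slide and row block gave Cd3e -0.21, Cd3g -0.48 and Cd247 0.080, and as a random block Cd3d 0.11 and Cd8a 0.056. Array weights gave Cd3d 0.11, Lck 0.18 and Cd8a 0.34, and without both arrays Cd3e was -0.041 and Cd3g -0.24. The cause of the turned signs was not tested. Signal near background limits Cd8a and the dimmer probes of Cd247 and Cd4.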
